A study of Homo sapiens with 12 samples.

Results

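The classical cadherins and catenins are the core of the adherens junction. The 8 genes described here were chosen by symbol: the cadherin genes CDH1, CDH2, CDH3 and CDH11 and the catenin genes CTNNA1, CTNNB1, CTNND1 and JUP. All 8 are among the 56832 genes of the expression table, and 6 of them passed a filter of a mean of 1 TPM, a unit of transcript abundance per transcript length and library total, in either genotype, as did 17367 genes in all. CDH2 and CDH11 did not pass. JUP passed through the knockout lines alone.

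The cells were DU145, an established human prostate cancer line, in 12 RNA-seq libraries. The 6 RAC1 knockout libraries came from 3 clones made with sgRNA and Cas9 complexes and grown up from single cells, where sgRAC1 clone 1 carried the guide sgRAC1_1 and sgRAC1 clones 2 and 3 the guide sgRAC1_2. The 6 RAC1-positive libraries came from parental DU145 cells and from sgNTC clones 1 and 2, both made with the guide sgNTC_1. Each of the 6 lines gave 2 biological replicates, numbered as the batches, and all were grown in RPMI with 10% serum. Each knockout line is thus 1 clone, as is each sgNTC line, and the parental cells are labelled with no guide.

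Cadherins are single-pass membrane proteins that bind the same cadherin on the neighbouring cell through calcium-dependent outer domains. Inside the cell their tail holds p120-catenin, which keeps the cadherin at the surface, and beta-catenin or its paralog plakoglobin, which in turn hold alpha-catenin and through it the actin cortex. RAC1, a small GTPase that drives actin branching, is active at newly formed cadherin contacts, and beta-catenin that is not held by cadherin serves as the coactivator of Wnt signalling.

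Of the 8 genes, 4 matched an entry of the RefSeq promoter table (GRCh38.p14): CDH2, CTNNA1, CTNNB1 and JUP. The sequences of JUP and CTNNB1 are shown because these paralogs, which fill the same place on the cadherin tail, differed in their expression below. Each runs from 250 bases before a start site to 50 bases after it. Capitals mark CACCTG and CAGGTG, the E-box read on both strands, bound by repressors of CDH1 such as SNAI1 and ZEB1.
JUP, first start, chr17:41786662-41786961, minus strand: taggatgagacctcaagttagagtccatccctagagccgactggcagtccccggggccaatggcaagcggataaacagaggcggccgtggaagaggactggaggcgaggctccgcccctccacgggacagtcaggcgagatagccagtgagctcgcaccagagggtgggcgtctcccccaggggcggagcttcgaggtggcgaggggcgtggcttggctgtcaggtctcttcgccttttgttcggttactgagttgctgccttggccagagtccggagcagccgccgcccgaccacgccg
JUP, second start, chr17:41785927-41786226, minus strand: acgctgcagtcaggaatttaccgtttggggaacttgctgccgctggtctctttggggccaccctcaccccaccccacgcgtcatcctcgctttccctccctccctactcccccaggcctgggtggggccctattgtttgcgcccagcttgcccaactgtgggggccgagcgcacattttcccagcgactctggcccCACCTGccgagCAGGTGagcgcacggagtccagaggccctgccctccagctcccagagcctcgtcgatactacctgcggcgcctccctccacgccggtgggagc
CTNNB1, chr3:41199255-41199554, plus strand: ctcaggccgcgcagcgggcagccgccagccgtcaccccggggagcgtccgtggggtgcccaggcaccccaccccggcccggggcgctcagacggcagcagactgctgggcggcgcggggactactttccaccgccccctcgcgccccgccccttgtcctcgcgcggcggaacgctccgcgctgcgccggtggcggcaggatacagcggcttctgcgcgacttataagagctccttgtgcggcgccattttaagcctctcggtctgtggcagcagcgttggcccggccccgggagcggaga
The second JUP start held 2 E-boxes, which do not overlap and begin at -54 and -43 relative to the start. The first JUP start and the CTNNB1 window held 0. Of the 35116 windows of this length in the table, 20.6% held the motif at least once and 3.49% at least 2 times. The match describes these letters only.

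RAC1 had 36.5 to 59.2 TPM across the 6 knockout libraries, against 149 to 202 TPM across the 6 RAC1-positive ones. Its log2 difference of -1.89 was the 1 call over all genes (limma adjusted p = 0.0467), and that call was lost in 19 of 29 other settings. The sum of each TPM column is 1000000, so the depth of each library is unknown. One library, sgNTC clone 2 replicate 1, stood apart, with 13608 genes above 0 against 20470 to 25156 in the other 11. The genotype differences of the tested members are given with and without it. Those of flanking genes and of the gene lists are given with it only. Of 8 epithelial markers, 7 averaged at least 1 TPM over the libraries and KRT5 was at 0 throughout. The sum of these markers was 403 to 790 TPM in the knockout, against 294 to 822 TPM in the RAC1-positive libraries. The prostate luminal markers KLK3 and TMPRSS2 were listed at 0 in every library. Leukocyte markers summed to 0.726 to 4.23 TPM in the knockout, against 0 to 1.08 TPM in the RAC1-positive libraries. Of these markers PTPRC and CD3E were at 0 throughout, and CD14 alone averaged at least 1 TPM. CD14 had a mean of 1.79 TPM in the knockout, against 0.440 TPM in the RAC1-positive libraries, and reached 4.23 TPM. The part of these markers in the results was not tested. The endothelial markers summed to at most 0.791 TPM. The 8 mesenchymal or fibroblast markers summed to 166 to 223 TPM in the knockout, against 176 to 235 TPM in the RAC1-positive libraries, nearly all of it VIM, which alone averaged at least 1 TPM (164.8 to 233.9 TPM over the 12 libraries), while LUM was at 0 throughout.

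The central comparison asked which cadherin and catenin transcripts separate the RAC1 knockout clones from the lines that keep RAC1. CDH1, CDH3, CTNND1 and JUP were higher in the knockout clones, with all 6 knockout libraries above all 6 RAC1-positive libraries in each case, while CTNNA1 and CTNNB1 overlapped between the genotypes. In bulk RNA fewer cells of one kind and less RNA per cell cannot be told apart. CDH3 was 3.73 times and CDH1 3.39 times as abundant in the knockout lines by mean TPM, and CTNND1 1.39 times. With 1 value per line none of the 6 passed limma at an adjusted p of 0.05, where 0.00576% of the genes tested passed in either direction. At an unadjusted p of 0.05 limma gave 4 of the 6, all higher, where 7.53% of all genes tested were higher at that threshold. JUP, 1 of these 4, was tested only because it passed the level filter in the knockout lines, where it is high, and without it the count was 3 of 5. Full separation of the 12 libraries upward was seen for 2.14% of all genes tested, and separation of the line means upward for 12% of them. Without sgNTC clone 2 replicate 1 the log2 difference was 1.47 for CDH1, 1.86 for CDH3 and 0.49 for CTNND1, and 0 of the 6 passed.

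**Figure D1:**
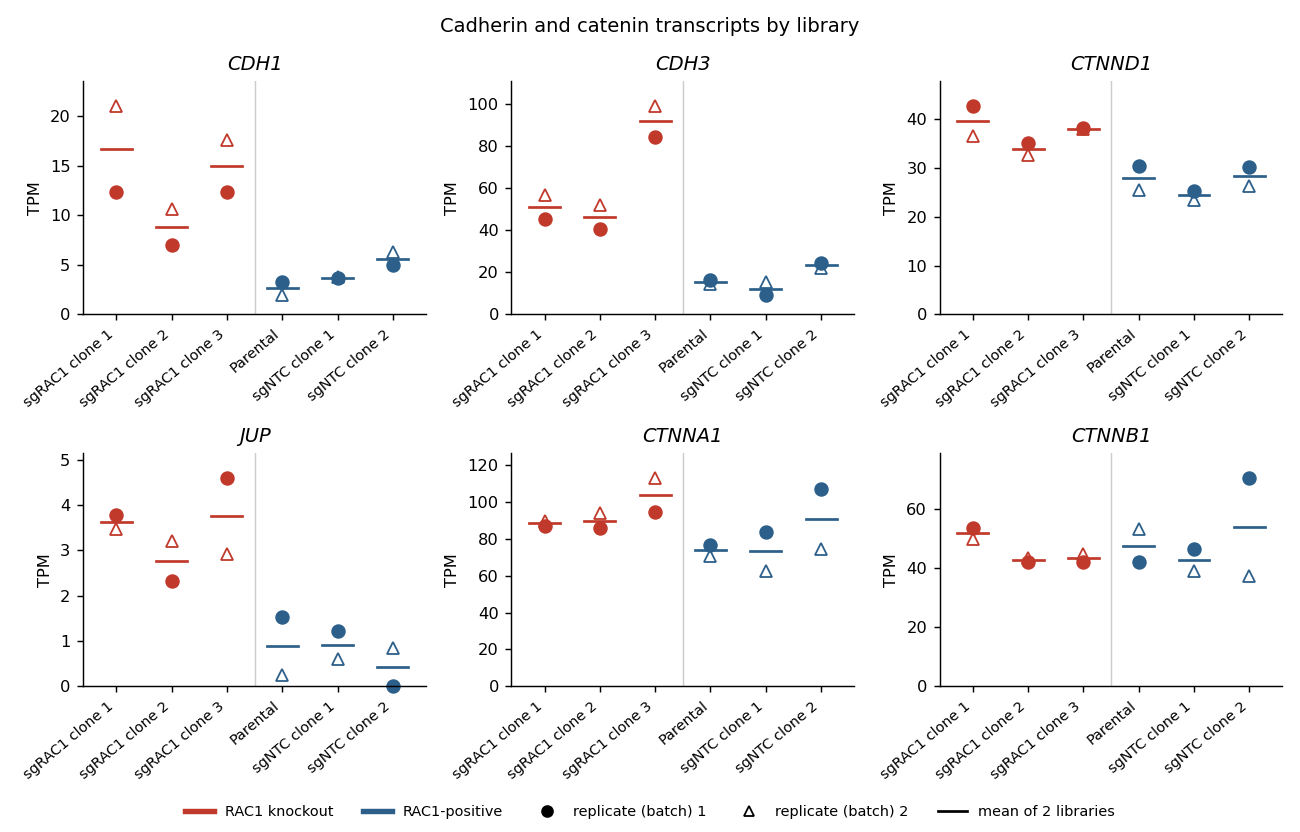
TPM of the 6 tested genes in each library, by line, with RAC1 knockout clones at the left of each panel in red and RAC1-positive lines at the right in blue. Filled circles are replicate 1, open triangles replicate 2 and bars the mean of the 2 libraries. For CDH1, CDH3, CTNND1 and JUP every red point lies above every blue point, while CTNNA1 and CTNNB1 overlap.

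Among the cadherins, CDH3 was the most abundant. It encodes P-cadherin, the classical cadherin of basal epithelial cells (chromosome 16, 68636189 to 68722616, plus strand, GRCh38). It stood at 45.3 and 56.9 TPM in sgRAC1 clone 1, 40.6 and 52.0 TPM in sgRAC1 clone 2, and 84.5 and 99.0 TPM in sgRAC1 clone 3. The RAC1-positive lines had 16.5 and 14.2 TPM in the parental cells, 8.98 and 15.2 TPM in sgNTC clone 1, and 24.6 and 21.9 TPM in sgNTC clone 2. The groups did not overlap, and the lowest knockout library was above the highest RAC1-positive one. The mean was 63.1 ± 25.0 TPM over the knockout lines and 16.9 ± 5.75 TPM over the RAC1-positive lines (SD over lines, n = 3 each). That placed CDH3 above 87.2% of the genes tested in the knockout lines and above 69.8% in the RAC1-positive lines. The difference was 1.83 in log2(TPM + 1), where the added 1 shrinks the change of low genes (SE 0.32, 95% interval 1.07 to 2.58, limma adjusted p = 0.143).

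Over the 6 lines CDH3 was the 1 member that passed, by a moderated F test over the line means (limma adjusted p = 0.0109), where 0.322% of all genes tested passed. This test and those of single clones take their error from how far the 2 libraries of each line lie apart, not from how lines of a genotype vary. The order was sgRAC1 clone 3, clone 1 and clone 2, then sgNTC clone 2, the parental line and sgNTC clone 1. The libraries of sgRAC1 clones 1 and 2 overlapped, as did those of the parental line and sgNTC clone 1. The F test call was lost without sgRAC1 clone 1 replicate 2, either library of sgRAC1 clone 3 or parental replicate 2, and limma adjusted p was 0.00694 to 0.0454 without any 1 of the other 8 libraries. Neither the 3 RAC1-positive lines (limma adjusted p = 0.808, unadjusted 0.0168) nor the 3 knockout clones (limma adjusted p = 0.948, unadjusted 0.00881) passed when compared among themselves, where 0.0115% and 0.0576% of all genes did.

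CDH1 encodes E-cadherin, the defining cadherin of epithelial sheets (chromosome 16, 68737225 to 68835548, plus strand). It was at 12.3 and 21.0 TPM in sgRAC1 clone 1, 7.04 and 10.6 TPM in sgRAC1 clone 2, and 12.3 and 17.6 TPM in sgRAC1 clone 3. In the RAC1-positive lines it was at 3.26 and 1.99 TPM in the parental cells, 3.70 and 3.73 TPM in sgNTC clone 1, and 4.97 and 6.25 TPM in sgNTC clone 2. The closest libraries were replicate 1 of sgRAC1 clone 2 and replicate 2 of sgNTC clone 2, and the groups did not overlap. Line means were 13.5 ± 4.13 TPM in the knockout, against 3.98 ± 1.51 TPM in RAC1-positive lines (SD over lines, n = 3 each). The difference of 1.52 on the log2(TPM + 1) scale (SE 0.30, 95% interval 0.81 to 2.23) had a limma adjusted p of 0.156. sgRAC1 clones 1 and 3 overlapped in their libraries and stood highest, sgRAC1 clone 2 came next, and the parental cells stood lowest. The F test over the 6 lines gave limma adjusted p = 0.0702. CDH1 was above 65.8% of the genes tested in the knockout lines and 41.1% in the RAC1-positive lines.

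The 2 cadherins kept nearly the same proportion while their sum differed. Values in TPM are per transcript length, so levels of different genes can be added. CDH1, CDH2, CDH3 and CDH11 together made 76.6 ± 26.9 TPM in the knockout lines, against 20.9 ± 6.95 TPM in RAC1-positive lines (SD over lines, n = 3 each). CDH1 contributed 17.98 ± 5.46% of that sum in the knockout lines and 19.4 ± 4.92% in the RAC1-positive lines. By library this share ran over 12.7 to 26.97% in the knockout and 12.3 to 28.8% in the RAC1-positive libraries, so the ranges largely coincided.

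**Figure D2:**
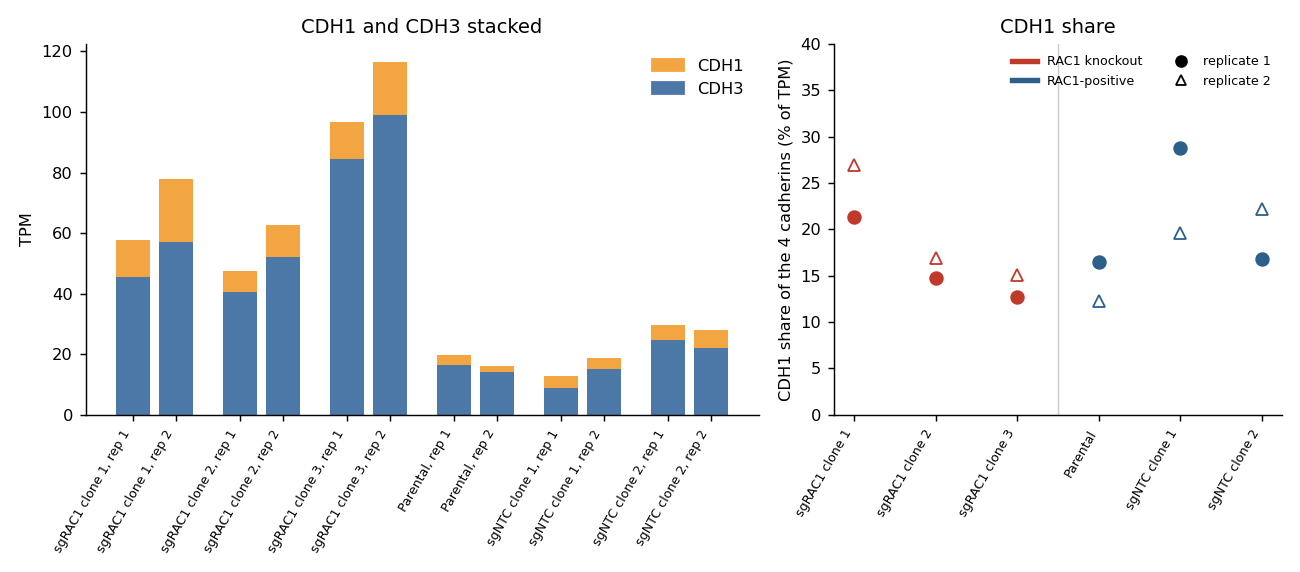
Left, CDH3 (blue) and CDH1 (orange) stacked in TPM for each library, with the knockout clones first. Right, CDH1 as a percentage of the summed TPM of CDH1, CDH2, CDH3 and CDH11 in each library. With CDH2 and CDH11 counted the sum is 47.8 to 116.6 TPM in the knockout libraries and 12.9 to 29.6 TPM in the RAC1-positive libraries, while the CDH1 share overlaps between the genotypes.

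CDH2 and CDH11, which encode the N-cadherin and cadherin-11 of neural and mesenchymal cells, were close to 0 (CDH2: chromosome 18, 27950966 to 28177446, minus strand; CDH11: chromosome 16, 64943753 to 65126112, minus strand). CDH2 was listed at 0 in 8 of 12 libraries, with at most 0.124 TPM in a knockout library and 0.122 TPM in a RAC1-positive one. CDH11 was listed at 0 in 9 of 12 libraries, with highest values of 0.0428 TPM in a knockout library and 0.0643 TPM in a RAC1-positive one. Both were below the level filter and outside the comparison in the authors' deposited table. None of the 15 other classical cadherin genes listed beside them passed the filter either, and the highest of those, CDH24, averaged 0.989 TPM in the knockout, against 0.533 TPM in RAC1-positive lines.

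CDH3 and CDH1 lie next to each other on chromosome 16, with 14608 bases between them. The 3 nearest tested protein-coding genes on either side had smaller differences, as the plot of CDH3, CDH1 and flanking genes shows. On the CDH3 side, ZFP90 was at 3.64 TPM in the knockout lines, against 4.71 TPM in RAC1-positive lines (log2 difference -0.29, limma adjusted p = 0.571). On the CDH1 side, TANGO6 was at 10.4 TPM in the knockout lines, against 8.97 TPM in RAC1-positive lines (log2 difference 0.20, limma adjusted p = 0.562), with its line means apart. The other 4 flanking genes had log2 differences of -0.15 to -0.011. CDH11, on the same chromosome arm, was near 0 in both genotypes. The flanks of the other members were less even. Beside JUP, P3H4 was at 7.02 TPM in the knockout lines, against 3.98 TPM in RAC1-positive lines (log2 difference 0.68, limma adjusted p = 0.203). KRT15, a keratin gene on the other side of JUP, had a log2 difference of 0.66 (limma adjusted p = 0.354). LPXN beside CTNND1 had one of 0.52 (limma adjusted p = 0.368). These 3 had line means apart upward, and FAM111B beside CTNND1 had them apart downward (-0.34). Over all genes tested 12% had line means apart upward and 8.52% downward. The other 8 flanking genes of JUP and CTNND1, at -0.42 to 0.48, had line means that overlapped.

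**Figure D3:**
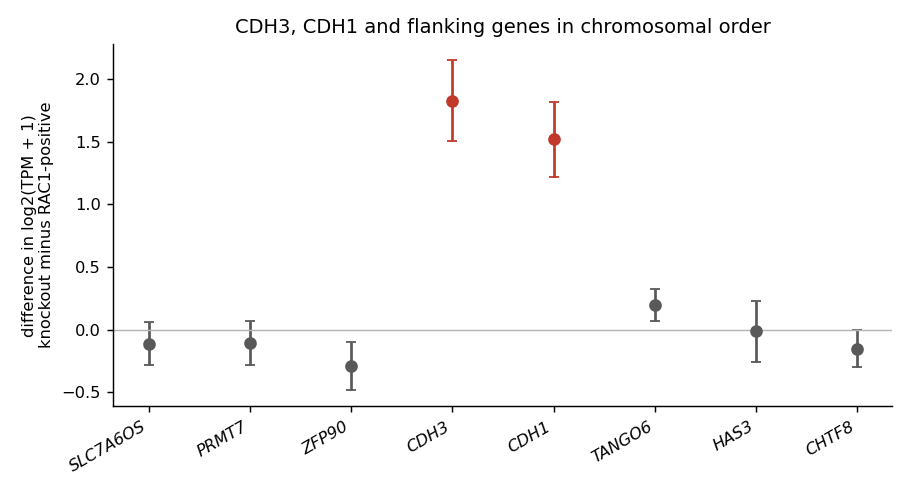
Difference in mean log2(TPM + 1), knockout minus RAC1-positive lines, for CDH3 and CDH1 (red) and for the 3 tested protein-coding genes on either side (grey), in chromosomal order. Bars are the standard error from limma. The cadherin genes lie at 1.83 and 1.52 and the flanking genes between -0.29 and 0.20.

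Among the catenins, CTNND1 encodes p120-catenin (chromosome 11, 57753243 to 57819546, plus strand). It was at 42.7 and 36.6 TPM in sgRAC1 clone 1, 35.2 and 32.6 TPM in sgRAC1 clone 2, and 38.1 and 38.1 TPM in sgRAC1 clone 3. The RAC1-positive values were 30.4 and 25.4 TPM in the parental cells, 25.3 and 23.4 TPM in sgNTC clone 1, and 30.2 and 26.3 TPM in sgNTC clone 2. The groups did not overlap, although the gap between the lowest knockout and the highest RAC1-positive library was narrow. Line means were 37.2 ± 2.97 TPM in the knockout, against 26.9 ± 2.15 TPM in RAC1-positive lines (SD over lines, n = 3 each). The log2 difference was 0.46 (SE 0.12, 95% interval 0.19 to 0.73, limma adjusted p = 0.212). The readthrough gene TMX2-CTNND1, which overlaps it on the same strand, was listed at 0.

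JUP encodes plakoglobin, also called gamma-catenin, which joins both adherens junctions and desmosomes (chromosome 17, 41754604 to 41786931, minus strand). It was at 3.78 and 3.46 TPM in sgRAC1 clone 1, 2.32 and 3.19 TPM in sgRAC1 clone 2, and 4.59 and 2.91 TPM in sgRAC1 clone 3. In the RAC1-positive lines it was at 1.54 and 0.261 TPM in the parental cells and 1.22 and 0.610 TPM in sgNTC clone 1. In sgNTC clone 2 it was listed at 0 in replicate 1 and at 0.845 TPM in replicate 2. All knockout libraries were above all RAC1-positive ones, at low levels throughout. The log2 difference of 1.38 (SE 0.23, 95% interval 0.84 to 1.92, limma adjusted p = 0.143) was 1.23 without sgNTC clone 2 replicate 1. It depended on the pseudocount, at 2.48 with 0.1 added to the TPM and 0.54 with 5 added.

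CTNNB1 encodes beta-catenin (chromosome 3, 41194741 to 41260096, plus strand). It was at 41.9 to 53.6 TPM in the knockout libraries (median 43.9) and 37.4 to 70.3 TPM in the RAC1-positive libraries (median 44.2). The 2 groups overlapped, and the highest value was that of sgNTC clone 2 replicate 1. The log2 difference was -0.038 (SE 0.12, 95% interval -0.33 to 0.25, limma adjusted p = 0.916). Its sign turned within batch 2 (0.10) and without sgNTC clone 2 replicate 1 (0.11). The ULK4 gene overlaps CTNNB1 on the opposite strand, at no more than 4.66 TPM. No source used here states whether reads were counted by strand, so reads of such a pair cannot be told apart.

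CTNNA1 encodes alpha-catenin, the link from beta-catenin to actin (chromosome 5, 138610967 to 138935034, plus strand). It was the most abundant of the 8, above 90.1% of the genes tested by its mean. It was at 85.6 to 113 TPM in the knockout libraries (median 91.9) and 62.8 to 107 TPM in the RAC1-positive libraries (median 75.5), and the groups overlapped through sgNTC clone 2 replicate 1. The log2 difference was 0.26 (SE 0.12, 95% interval -0.023 to 0.54, limma adjusted p = 0.413). It was 0.34 without that library, 0.013 within batch 1 and 0.50 within batch 2.

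The ratio of cadherin to catenin transcripts was higher in the knockout libraries, with no overlap between genotypes for any of the ratios given next. The summed cadherin TPM was 1.57 ± 0.60 times that of CTNNB1 and JUP together in the knockout lines and 0.445 ± 0.12 times in the RAC1-positive lines (SD over lines, n = 3 each). Relative to CTNND1 it was 2.06 ± 0.64 times in the knockout lines and 0.776 ± 0.22 times in the RAC1-positive lines. JUP made 5.25 to 9.88% of the summed TPM of JUP and CTNNB1 in the knockout libraries and 0 to 3.53% in the RAC1-positive libraries. The 0 was that of sgNTC clone 2 replicate 1, and without it the RAC1-positive range was 0.491 to 3.53%.

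Each knockout clone was then set against the mean of the 3 RAC1-positive lines, controls that the 3 contrasts share. CDH3 rose in all 3 clones. Its log2 difference was 1.60 in sgRAC1 clone 1 (SE 0.21, limma adjusted p = 0.0193), 1.46 in clone 2 (limma adjusted p = 0.0430) and 2.43 in clone 3 (limma adjusted p = 0.00191). CDH1 rose in sgRAC1 clone 1 by 1.84 (SE 0.27, limma adjusted p = 0.0298) and in clone 3 by 1.71 (limma adjusted p = 0.0250). In clone 2 CDH1 differed by 1.01 and missed the threshold (limma adjusted p = 0.370). Genes called as higher made 0.432% of all genes tested in clone 1, 0.167% in clone 2 and 0.927% in clone 3. CTNND1 differed by 0.55, 0.33 and 0.50 in clones 1, 2 and 3 and JUP by 1.48, 1.17 and 1.49, none past the threshold. A test of whether the 3 clones differ in CDH1 did not pass (limma adjusted p = 1, unadjusted 0.0716). The CDH3 calls held in clone 3 without any 1 of the 12 libraries. In clone 1 the CDH3 call was lost without either parental library or either library of the clone. In clone 2 it was lost with the replicate number as a block, with no level filter, at a pseudocount of 0.1, and without any 1 library other than replicate 2 of sgNTC clone 1 or 2. The CDH1 call was lost in clone 1 without any 1 library other than the 2 of sgNTC clone 2, and in clone 3 without any 1 other than those and the 2 of sgRAC1 clone 1.

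**Figure D4:**
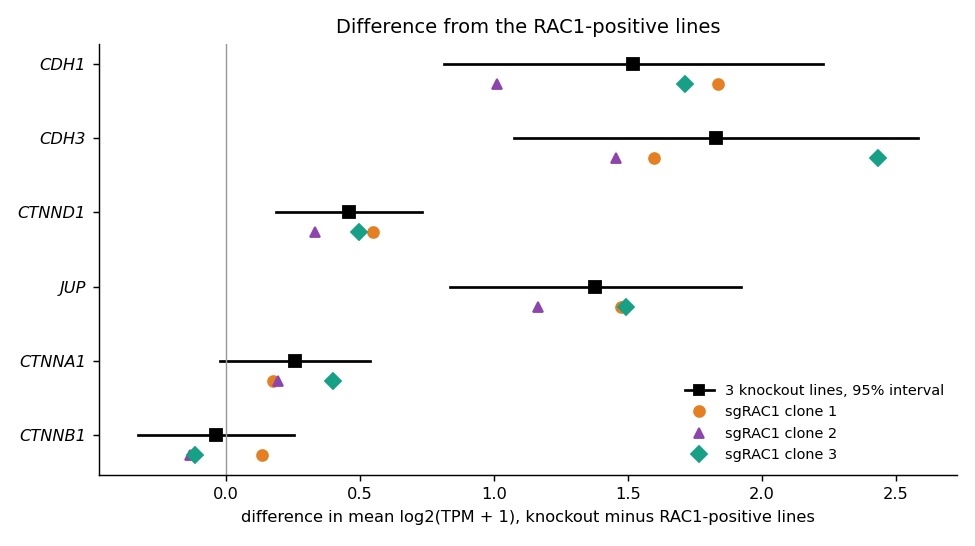
Difference in mean log2(TPM + 1) from the RAC1-positive lines for each tested gene. Black squares with bars are the 3 knockout lines with the 95% interval from limma, and coloured symbols below them are the single clones. CDH1, CDH3, CTNND1 and JUP lie above 0 in every clone, with sgRAC1 clone 2 lowest in each, and CTNNB1 lies around 0.

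Replicate number and batch coincided, so each difference was also taken within a batch. CDH3 differed by 1.73 in batch 1 and 1.92 in batch 2, CTNND1 by 0.42 and 0.50, and JUP by 1.33 and 1.43. CDH1 differed by 1.19 in batch 1 and 1.85 in batch 2, a ratio above 1.5. In each knockout clone CDH1 was higher in replicate 2 than in replicate 1. The change of the CDH1 difference between batches had a limma unadjusted p of 0.0634 and an adjusted p of 0.912. CTNNA1 differed by 0.013 in batch 1 and 0.50 in batch 2. Its change had a limma unadjusted p of 0.0579 and an adjusted p of 0.912 by the same test. On simulated data of 17367 genes that test recovered 0% of genes whose difference changed 4-fold, so it says little on whether the batches were alike.

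When all 12 libraries entered limma and the line was a random block, 4 of the 6 tested genes passed, where 1.69% of all genes tested passed upward. Leaving out JUP, which the level filter admitted through the knockout lines alone, 3 of 5 passed. Limma adjusted p was 0.0117 for CDH1, 0.00504 for CDH3, 0.0256 for CTNND1 and 0.0122 for JUP. With the replicate number as a further block, where 1.42% of all genes passed upward, it was 0.0162, 0.00909, 0.0255 and 0.0213 for the same genes. The correlation that limma estimated within lines was -0.03, so libraries of a line counted almost as separate samples of the genotype. The authors' deposited table, made from the same libraries, called 5 of the 6 as higher, where 5.68% of its 15140 genes were called higher. By the authors' deposited table log2 fold changes were 1.78 for CDH1 (adjusted p = 1.741e-09), 1.94 for CDH3 (adjusted p = 2.407e-14), 0.46 for CTNND1 (adjusted p = 7.819e-06), 1.90 for JUP (adjusted p = 1.466e-06) and 0.27 for CTNNA1 (adjusted p = 0.0425). CTNNB1 was at -0.027 in the authors' deposited table (adjusted p = 0.936).

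Other genes of the junction were examined as lists, and no gene of any list passed per line in limma. The median log2 difference was 0.92 over the 6 tested cadherin and catenin genes, 0.46 without JUP, and 0.025 over all 17367 genes tested. Of 16 genes that link junctions to actin, 12 were higher by value in the knockout lines, 4 had all line means apart upward, and the median was 0.19. Higher or lower by value means here the sign of the difference in mean log2(TPM + 1). Over all genes tested 53.3% were higher by value, 12% had line means apart upward and 2.14% had all libraries apart upward. PDLIM5, a PDZ and LIM domain protein of actin bundles, was at 41.3 to 63.5 TPM in the knockout, against 21.0 to 34.6 TPM in the RAC1-positive libraries. VCL, the vinculin that alpha-catenin recruits under tension, was at 63.2 to 96.4 TPM in the knockout, against 44.7 to 61.4 TPM in the RAC1-positive libraries. Both were apart in all 12 libraries, with log2 differences of 0.85 and 0.66 (limma adjusted p = 0.143 and 0.176).

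Of 5 tested desmosome partners of plakoglobin, all 5 were higher in mean log2(TPM + 1) and 2 had line means apart upward. Over all genes tested these shares were 53.3% and 12%. In mean TPM, DSC3 and PKP3 were slightly lower. DSC3 was at 2.023 TPM in the knockout lines, against 2.266 TPM in RAC1-positive lines, and PKP3 at 2.212 against 2.245 TPM. DSG2, a desmosomal cadherin, was at 166 to 225 TPM in the knockout, against 98.5 to 167 TPM in the RAC1-positive libraries (log2 difference 0.57, limma adjusted p = 0.156). DSC2, its partner desmocollin, was at 10.3 to 12.1 TPM in the knockout, against 5.46 to 11.6 TPM in the RAC1-positive libraries (log2 difference 0.56, limma adjusted p = 0.239). For both the libraries overlapped between the genotypes.

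Among 17 tested genes of cadherin trafficking and turnover, 11 were higher by value, 4 had line means apart upward and 3 downward, and the median was 0.16. Over all genes tested 53.3% were higher by value, 12% had line means apart upward and 8.52% had them apart downward. PTPRM, a receptor phosphatase that binds cadherin complexes, was at 2.20 to 5.83 TPM in the knockout, against 1.03 to 2.18 TPM in the RAC1-positive libraries (log2 difference 0.91, limma adjusted p = 0.261). The median of the 5 tested nectin and afadin genes was 0.15, and none had line means apart. Their smallest p values were those of PVR, a nectin-like adhesion receptor (0.33), and MLLT4, which encodes afadin (0.16), both given as log2 differences.

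Of the catenin paralogs 2 were tested and both were lower by value. CTNNAL1, an alpha-catenin relative, was at 99.7 to 236 TPM in the knockout, against 235 to 383 TPM in the RAC1-positive libraries, which touched at their ends (log2 difference -0.86, limma adjusted p = 0.238). By clone its difference was -0.29, -0.97 and -1.31 in sgRAC1 clones 1, 2 and 3. PKP4, a p120 family member, differed by -0.22 (limma adjusted p = 0.612).

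**Figure D5:**
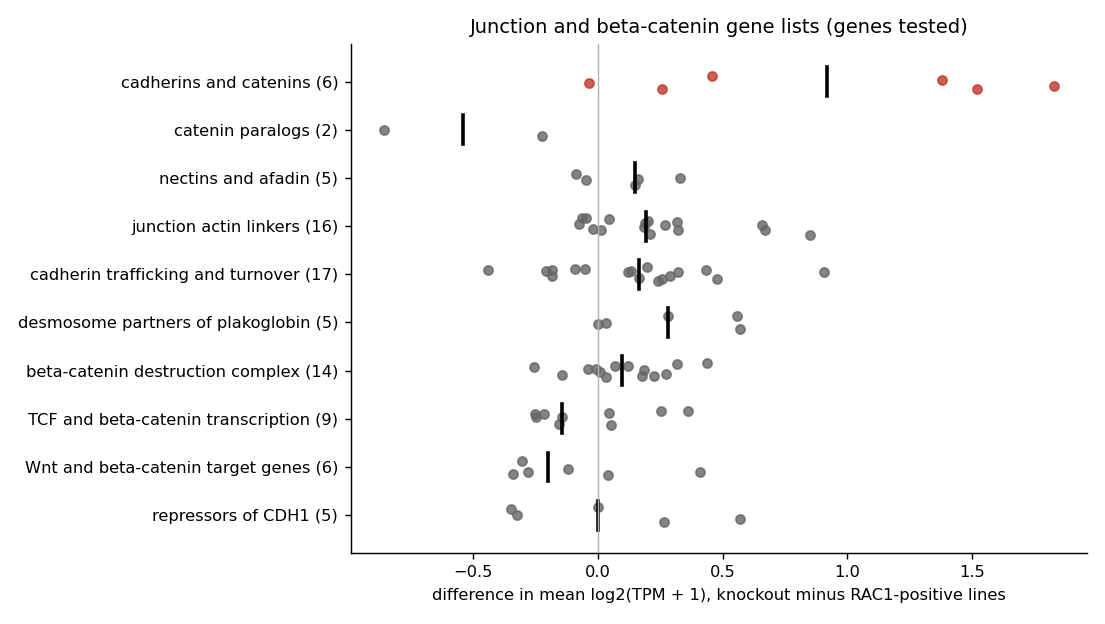
Difference in mean log2(TPM + 1), knockout minus RAC1-positive lines, for each tested gene of the cadherin and catenin set (red) and of the other junction and beta-catenin lists (grey), with the number of genes tested in brackets. Black bars are list medians, at 0.92 for the cadherins and catenins and between -0.54 and 0.28 for the others.

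On the beta-catenin side, 14 genes that form or regulate the destruction complex, which degrades beta-catenin, were tested, with a median of 0.095. The smallest p values were those of DVL3, a regulator, at 0.44 and GSK3B at 0.32 on the log2 scale (limma adjusted p = 0.370 and 0.546). DVL3 differed by 0.81 in batch 1, which holds sgNTC clone 2 replicate 1, and by 0.065 in batch 2. For GSK3B these values were 0.41 and 0.23. The TCF and beta-catenin transcription genes had a median of -0.15 over 9, led by CDC73 at -0.25 and CTBP1 at -0.25 (limma adjusted p = 0.382 and 0.446). Of 20 Wnt target genes 6 were tested, with a median of -0.20, 2 higher and 4 lower by value. CD44, an adhesion receptor, was at 87.2 TPM in the knockout lines, against 64.4 TPM in RAC1-positive lines (log2 difference 0.41, limma adjusted p = 0.209). MYC was at 55.6 TPM in the knockout lines, against 69.4 TPM in RAC1-positive lines (log2 difference -0.28, limma adjusted p = 0.318). AXIN2, the most widely used readout of beta-catenin activity, stayed at or below 0.175 TPM in all libraries. The most abundant of the listed Wnt target genes was DKK1, at 216 TPM in the knockout lines, against 226 TPM in RAC1-positive lines.

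Of 9 repressors of CDH1, 5 were tested, with a median of -0.00015 and none past the threshold. ZEB1 was at 7.27 TPM in the knockout lines, against 9.45 TPM in RAC1-positive lines (log2 difference -0.32, limma adjusted p = 0.595), and its libraries overlapped. SNAI2 was at 1.26 TPM in the knockout lines, against 0.549 TPM in RAC1-positive lines (log2 difference 0.57, limma adjusted p = 0.413). SNAI2 differed by 0.93 in batch 1, which holds sgNTC clone 2 replicate 1, and by 0.20 in batch 2. For ZEB1 these values were -0.52 and -0.13. TWIST1 was listed at 0 in every library, while TWIST2 was at 2.43 TPM in the knockout lines, against 3.99 TPM in RAC1-positive lines.

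The genes most like 4 of the members in pattern were taken by Pearson's r over the 12 libraries on log2(TPM + 1), as a description over points that share genotype and batch. For CDH3 they were PAPSS2 (r = 0.974), HLA-B (r = 0.967) and IFIT1 (r = 0.965). For CDH1 they were SLC27A2 (r = 0.936), RAB27A (r = 0.930) and HIST1H4H (r = 0.915). HIST1H4H, a replication-dependent histone gene, was among the 3 closest for both CDH1 and CTNND1. JUP was closest to MGST3 (r = 0.959), TBC1D19 (r = 0.940) and RAB5B (r = 0.940). CTNND1 was closest to CTD-2003C8.1 (r = 0.950), HIST1H4H (r = 0.945) and VCL (r = 0.942). The search covered 8590 genes, or 8591 for JUP. JUP, CDH2 and CDH11 lay below its level minimum and could not be named for another member.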

How the data were processed

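Per the labels' protocols, RNA of 6 DU145 lines was read into cDNA with SMARTScribe reverse transcriptase. STAR 2.6.1d, DESeq2 and the build GRCh38 are named in the submitters' processing notes, while neither they nor the labels state how or by which strand reads were counted or which annotation was used. The authors deposited 1 table with TPM values per library, a unit read from columns that each sum to 1000000. Per the file headers it also holds the authors' DESeq2 output for each gene: mean signal (normalized counts), log2 fold change, its SE, the Wald statistic as a score, and the raw and adjusted p-value.

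Here the mean of log2(TPM + 1) over the 2 libraries of a line was compared in limma 3.58.1 (R 4.3.3), 3 lines against 3, over the 17367 genes that averaged 1 TPM or more in one of the genotypes, with Benjamini-Hochberg adjustment over all of them at 0.05. An exact two-sided permutation test of line means cannot go below p = 0.10 here; it gave p = 0.10 for CDH1, CDH3, CTNND1 and JUP, 0.20 for CTNNA1 and 1 for CTNNB1. Single clones and the F tests used all 12 libraries with a mean per line. Libraries are labelled as biological replicates of a line, without naming separate cultures. The labels give the replicate number as the batch, which pairs the libraries, and deviations of same-numbered libraries correlated at -0.13 to 0.30 across the 15 line pairs. Scripts were tested on simulated data. Positions are from GENCODE 29 and promoters from RefSeq (GRCh38.p14). The genes, lists and rules were chosen with earlier results of these data known: all members and RAC1 are named, 2 genes per list by smallest p where none passed, and the 3 genes most like each of 4 members, those with the largest F, among genes with a mean of at least 5 TPM and at least 0.5 TPM in every library. Results of some genes that these rules would name are not reported here. CDH24, AXIN2, DKK1, TWIST1, TWIST2, the flanking genes and single marker genes were named after their values were seen. Other settings tried were the line as a random block, the replicate block, 2 scalings, the level filter, the pseudocount, single batches, and leaving out each line or library.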

Additional observations from a re-analysis of the deposited data

Results flagged for a closer look

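CTNNA1 in sgRAC1 clone 3 replicate 2 was at 112.9 TPM, far above the other 5 knockout libraries for their spread. CDH11 had 1 knockout library above 0, at 0.0428 TPM in sgRAC1 clone 2 replicate 1. Of 16 groups of 6 libraries examined, these 2 were flagged. For normally distributed values chance flags about 1 group in 20, a rate that does not hold for CDH2 and CDH11, mostly at 0. With the other 5 knockout libraries at 0, any CDH11 value above 0 would have been flagged.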

How the results depend on the processing

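Per line, 0 of the 6 tested members passed in limma under each scaling, filter, pseudocount and single batch, and 0 to 0 when 1 line or library was left out. The count was 4 with the line as a random block, 4 with the replicate block added, and 4 with the random block without sgNTC clone 2 replicate 1, a setting chosen after seeing the data. Over the 6 lines the count was 1, and 0 to 2 when 1 library was left out. It was 2 for sgRAC1 clone 1 (0 to 2), 1 for clone 2 (0 to 1) and 2 for clone 3 (1 to 3, with JUP as the third). For clone 2 it was 0 with the replicate block, 0 without a level filter and 0 at a pseudocount of 0.1. Among the 3 RAC1-positive lines and among the 3 knockout clones it was 0 in all settings run. The replicate block changed no other call. Over all genes tested 1 passed per line, against 369 with the random block, 320 with the replicate block added, 620 with the random block without sgNTC clone 2 replicate 1, 33 in batch 2 alone, 3 under the 5 TPM filter, 2 at a pseudocount of 5, and 0 to 21 with 1 line or library left out; it was 0 under both scalings, without a filter, at a pseudocount of 0.1 and in batch 1 alone.

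The differences of CDH1, CDH3, CTNND1, JUP and CTNNA1 kept their sign in every setting run. That of CTNNB1 turned in 8: it was 0.10 in batch 2 alone, 0.077 with the random block without sgNTC clone 2 replicate 1, and -0.19 to 0.11 when 1 line or library was left out. CDH1 ran from 1.01 at a pseudocount of 5 to 1.85 in batch 2 alone. JUP had no value under the 5 TPM filter, which it does not pass. F tests need 2 libraries per line and were not run within a batch. The median log2 difference of all genes tested was 0.025, against 0.021 and 0.0061 under the other scalings. Depth is unknown, so values near 0 for CDH2, CDH11 and JUP have no stated detection limit.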
